A study of Ovis aries with 32 samples.

Results

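VEGFA and EPHA2 are 2 genes of blood vessel growth, and their mRNA was followed here in ovine middle cerebral arteries (MCA) at 4 ages, with and without phenylephrine (PHE). They are 2 of the 2269 genes with a named probe on the array. Every probe that could be tied to either gene was taken, which gave 4 of 15008 probes. VEGFA had 3 probes, A_70_P050921, A_70_P050922 and A_70_P061521, and EPHA2 had 1, A_70_P020406. The first 2 VEGFA probes carry a sheep VEGFA transcript accession in the array files. The other VEGFA probe and the EPHA2 probe were designed on expressed sequence tags with no gene name, and their names rest on a match of their group means to the study's list of genes altered by PHE, at the adult age only for A_70_P061521 and at all 4 ages for EPHA2. Near-term PHE means were matched without PHE replicate 1, which the list's means appear to leave out, while the values here use all 4 arrays. That list was made from these same arrays, so the EPHA2 probe at every age, and A_70_P061521 in the adult, could only be found where they had moved. Their values there are a description, and the tests printed beside them are no independent support. The 2 accession-named probes, and A_70_P061521 at the other 3 ages, do not share this limit.

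VEGFA encodes vascular endothelial growth factor A, a secreted dimer that binds the receptor tyrosine kinases FLT1 and KDR on endothelial cells, with the neuropilins NRP1 and NRP2 as co-receptors. It drives endothelial division, sprouting and permeability, and its transcription is raised by low oxygen and by growth factor and stress signalling. EPHA2 encodes a receptor tyrosine kinase of the Eph family, which is activated on contact by membrane-bound ephrin ligands on neighbouring cells, and it takes part in endothelial migration and assembly into vessels. PHE is an agonist of the alpha1-adrenergic receptor, through which sympathetic nerves contract arteries.

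The arteries came from premature fetuses (96 days of gestation), near-term fetuses (146 days in the labels, 140 days in the study's methods), newborn lambs (12 hours in the labels, 5 days in the methods) and adult sheep (2 years in the labels, 18 to 24 months in the methods). At each age, untreated segments and segments held in 10 µM PHE for 30 minutes were measured, with 4 one-colour arrays in each of the 8 groups. The labels do not say which arrays come from the same animal, so p-values describe the spread between these arrays, part of which may be technical. The segments are whole vessel wall freed of surrounding tissue, and in such bulk RNA fewer cells of a type and less RNA per cell cannot be told apart.

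Levels are given as log2 of the processed signal divided by the 75th percentile of the same array. A level of 0 is therefore the 75th percentile of that array, and only levels of the same probe are compared. The 75th percentile lay between 638 and 1710 intensity units for the 24 premature, newborn and adult arrays and between 124 and 1670 for the 8 near-term arrays, on which 59.3% to 95.6% of probes were well above background, against 63.4% to 74.1% elsewhere. Near-term untreated replicate 4 (124) and near-term PHE replicate 1 (369) were the dimmest arrays, and near-term results are given with and without them where they matter. Near-term untreated replicate 3 was nearly as dim (391) and had the lowest share of probes well above background (59.3%). It stays in the fits without both dim arrays. All newborn arrays were on slide 1 and all premature arrays on slide 2. The adult arrays lay on slides 3 and 4 and the near-term arrays on slides 3, 4 and 5. All 4 near-term PHE arrays were on slide 5 beside 1 untreated array. Newborn and premature arrays were scanned on 1 day, and adult and near-term arrays on another. Comparisons of either of the first ages with either of the last therefore also cross the 2 scan days. CNN1 (calponin) was the only gene of the smooth muscle marker list with a named probe. It had a clear signal on each of the 32 arrays, at log2 levels of 4.59 to 9.03. KDR was the only gene of the endothelial marker list with a named probe. Outside the near-term age neither of its 2 probes was well above background on any array. TIE1, an endothelial receptor outside that list, was well above background on 4 of 4 untreated premature and 3 of 4 untreated newborn arrays. In the untreated near-term and adult groups it was so on 1 of 4 arrays each.

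EPHA2 was low or below background in untreated arteries and rose with PHE at all 4 ages, with no overlap between untreated and PHE arrays at any age. In the premature fetus its log2 levels were -4.59, -5.08, -6.91 and -5.66 untreated and -1.34, -1.0, -1.12 and -1.20 with PHE. In the near-term fetus they were -6.73, -3.61, -6.05 and -3.77 untreated and -2.55, -0.54, -0.69 and 0.60 with PHE. The premature PHE arrays were close together (mean -1.17 ± 0.14, SD, n = 4), whereas the near-term PHE arrays spread widely (-0.80 ± 1.30), with replicate 1, a dim array, the lowest. In the newborn lamb EPHA2 was at -5.27, -6.39, -5.63 and -6.39 untreated, not well above background on any of the 4 arrays, and at -1.26, -1.23, -0.89 and -0.16 with PHE. In the adult it was at -5.38, -6.30, -4.23 and -5.13 untreated and 0.55, -3.25, -0.87 and -0.27 with PHE. Adult PHE replicate 2 was the lowest of its group and still lay above every untreated adult array. EPHA2 was well above background on 21 of the 32 arrays, which were all 16 PHE arrays, 1 untreated premature, 1 untreated near-term and 3 untreated adult arrays.

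**Figure D1:**
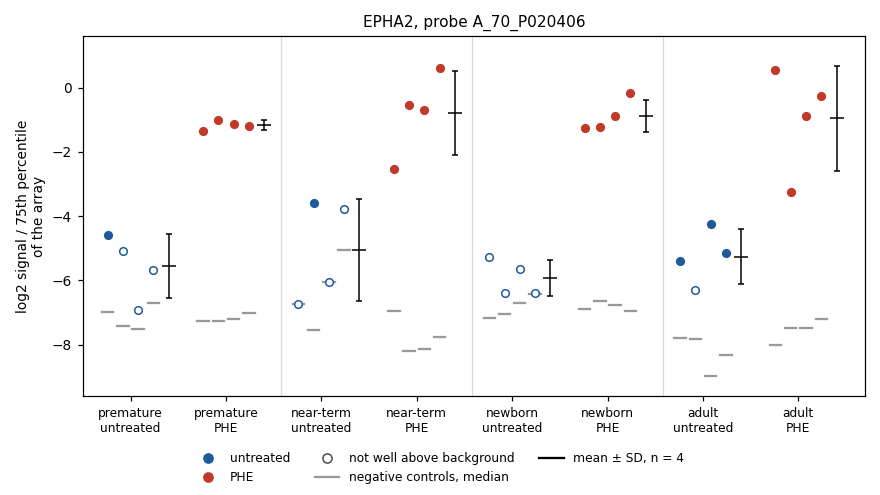
EPHA2 (probe A_70_P020406) on each of the 32 arrays by group, as log2 signal over the 75th percentile of the array; open circles are not well above background, grey bars are the median of the negative control spots of that array, and black bars are mean ± SD of 4 arrays. At each age all 4 PHE arrays lie above all 4 untreated arrays, and the near-term and adult PHE groups are spread more widely than the other 2.

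The PHE effect on EPHA2, as the log2 difference between PHE and untreated group means, was 4.40 ± 0.73 (SE) in the premature fetus, a 21.1-fold difference. It was 4.24 ± 0.73 in the near-term fetus, or 18.9-fold, and 4.30 ± 0.73 in the adult, or 19.7-fold. Since 1 premature, 1 near-term and 3 adult arrays of the 4 untreated ones were well above background, these folds rest partly on untreated signals below background and are approximate. In the newborn lamb the difference was 5.04 ± 0.73, and since no untreated array was well above background there it is given as at least 14.8-fold (group means -5.92 and -0.89). The adjusted p of limma from the youngest to the oldest age was 7.50e-05, 9.17e-05, 2.50e-05 and 0.000283. A probe was called at an adjusted p under 0.05 and a fold of at least 1.5, and by this rule PHE raised 9.12%, 17.5%, 5.9% and 3.04% of all tested probes at the 4 ages in that order. Ranked by fitted log2 difference, EPHA2 was number 70 of 10161 premature, 53 of 9919 near-term, 28 of 9796 newborn and 49 of 9582 adult probes tested. These ranks take untreated signals below background at face value, on all untreated arrays in the newborn lamb, and are not measured positions. The probe was found through these same changes, so the ranks are a description. In the exact two-sided permutation test over the 8 arrays of an age, p was 0.0286 at each age, the smallest that 4 against 4 arrays allow. This test ignores the pairing of premature and newborn arrays by replicate number, and a paired exact test over 4 pairs could not go below 0.125. Every PHE array lay above every untreated array for 20.6%, 7.94%, 13.6% and 4.29% of all tested probes, again from premature to adult. Leaving out any 1 of the 32 arrays kept the call at all 4 ages. The adult difference then ran from 3.80 to 5.06, the latter without PHE replicate 2. With the planned normexp correction the premature difference was 1.47 (adjusted p = 0.102) and the near-term one 0.90 (0.201), and both calls were lost, while they were kept at 2.05 and 1.88 once aberrant backgrounds were repaired. Both normexp runs add an offset of 50 intensity units, which makes log2 differences of dim signals smaller by construction. After adjustment, the methods' unpaired test did not call the near-term (adjusted p = 0.147) or the adult difference (0.282). The near-term call was also lost with only the near-term arrays fitted (adjusted p = 0.0762) and with slide as a block (difference 2.97, adjusted p = 0.0539), and it was kept, at 4.83, without PHE replicate 1. Within slide 5 alone the near-term difference was 2.97, against the 1 untreated array there.

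The PHE effect on EPHA2 was not shown to differ between ages. The fitted difference of effects was 0.64 for newborn minus premature (95% interval -1.48 to 2.76), -0.16 for near-term minus premature (-2.28 to 1.96) and 0.79 for newborn minus near-term (-1.33 to 2.91). For adult minus near-term it was 0.06 (-2.06 to 2.18) and for adult minus newborn -0.74 (-2.86 to 1.38). Untreated EPHA2 was well above background on 1, 1, 0 and 3 of 4 arrays from premature to adult, so these values and intervals take signals below background at face value, and a difference between ages could not be measured beyond that. They leave room for differences of up to nearly 3 log2 units, so equal effects are not shown. The shares of all tested probes called in these comparisons were 0.00968%, 4.43%, 10.7%, 10.7% and 0.0961%, in the same order.

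VEGFA was well above background on the most arrays for probe A_70_P061521, which was higher with PHE in the premature fetus, the newborn lamb and adult sheep by the test. Its near-term difference did not pass. Its sign changed with the planned normexp correction, which compressed untreated near-term replicates 1 and 3, but not once aberrant backgrounds were repaired. In the premature fetus its log2 levels were -1.71, -2.47, -1.93 and -1.97 untreated and -0.53, -0.15, -0.41 and -0.02 with PHE, so that the groups did not overlap. The difference was 1.75 ± 0.36 (SE), or 3.36-fold (limma, adjusted p = 0.000886), where 17.6% of all tested probes were called in either direction. In the newborn lamb the levels were -3.27, -2.68, -3.11 and -2.45 untreated and -0.63, -0.88, -0.74 and -0.36 with PHE. The newborn groups were also fully apart, with a difference of 2.23 ± 0.36, or 4.68-fold (adjusted p = 9.33e-05), at 11.1% of probes called. In the adult the levels were lower in both groups, at -5.80, -3.69, -5.34 and -4.66 untreated and -1.96, -3.60, -2.56 and -2.48 with PHE. The lowest PHE array, replicate 2, was just above the highest untreated array, also replicate 2, and the difference of 2.22 ± 0.36, or 4.67-fold, passed the test (adjusted p = 0.000145) at 3.88% of probes called. Every PHE array lay above every untreated array for 20.6%, 13.6% and 4.29% of all tested premature, newborn and adult probes. The adult call was lost with the planned normexp correction (1.23, adjusted p = 0.0597), with only the adult arrays fitted (0.0818) and with the methods' unpaired test after adjustment (0.304). The probe was well above background on 31 of the 32 arrays, the exception being adult untreated replicate 1.

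In the near-term fetus A_70_P061521 read -2.15, -3.17, -2.79 and -1.96 untreated and -2.05, -1.79, -1.73 and -1.16 with PHE, and the groups overlapped. The difference of 0.83 ± 0.36 (95% interval 0.10 to 1.57, 1.78-fold) had an adjusted p of 0.0663 (limma), where 35.9% of probes were called. The result depended on the background correction, on the normalization and on single arrays. The negative control medians lay at -7.54 to -5.04 on the untreated and -8.20 to -6.96 on the PHE near-term arrays. Above the median of its own array, the probe lay at 3.09 to 4.59 untreated and 4.92 to 6.60 with PHE, with no overlap. By percentile within the array the groups overlapped (34.7 to 56.1 and 55.3 to 56.4). These measures were not tested. Quantile normalization gave a difference of 1.13, which passed (limma, adjusted p = 0.0236). With the planned normexp correction the difference was -0.28 (adjusted p = 0.542), and with its aberrant backgrounds repaired 0.33 (0.326). Without both dim near-term arrays the difference was 1.14 (adjusted p = 0.0226), without PHE replicate 1 alone it was 0.96 (0.0459) and without untreated replicate 4 alone 1.02 (0.0329), and each of these passed. It also passed without adult untreated replicate 1 (adjusted p = 0.0498), adult untreated replicate 2 (0.0362) or adult PHE replicate 2 (0.0481), which enter only through the shared estimate of the spread. Within slide 5 the near-term difference was 0.28.

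**Figure D2:**
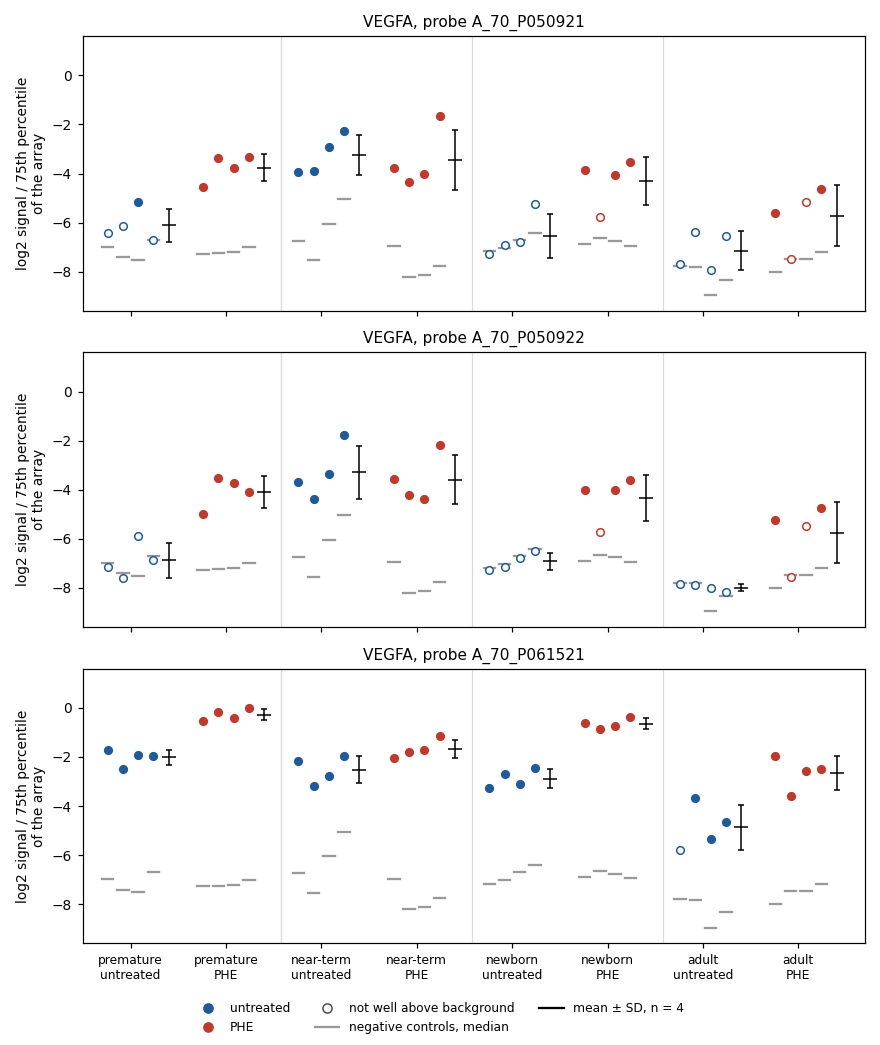
The 3 VEGFA probes on each of the 32 arrays by group, as log2 signal over the 75th percentile of the array; open circles are not well above background, grey bars are the median of the negative control spots, and black bars are mean ± SD of 4 arrays. Levels are comparable within a panel and not between panels. In the upper 2 panels all untreated newborn and adult arrays are open circles and all 8 near-term arrays are filled.

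The 2 accession-named VEGFA probes were near or below background in untreated premature, newborn and adult arteries. A_70_P050921 was called in the premature fetus, going from -6.41, -6.14, -5.17 and -6.71 untreated to -4.54, -3.38, -3.78 and -3.32 with PHE, a log2 difference of 2.35 ± 0.63 (limma, adjusted p = 0.00893), where 1 of the 4 untreated arrays was well above background. A_70_P050922 went there from -7.16, -7.58, -5.89 and -6.86 to -5.01, -3.53, -3.73 and -4.10 (group means -6.87 and -4.09). No untreated premature array was well above background for it, so its difference is given as at least 2.03-fold, and the fit had an adjusted p of 0.00101. Both probes passed the filter only through the PHE group, where they are high, so that a difference was likely among probes tested this way and the size for A_70_P050921 rests partly on signals below background. The premature groups were apart for both probes, with PHE higher, as they were for 20.6% of all tested probes. Both calls were lost when background was corrected by the normexp method in place of the scanner software's own correction, at differences of 0.55 and 0.59 (adjusted p = 0.29 and 0.254) once spots with aberrant local background were repaired. The offset of 50 intensity units in normexp makes differences of such dim probes smaller by construction.

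In the newborn lamb and the adult no group had all 4 arrays well above background for either accession-named probe, so neither was tested. In the newborn lamb A_70_P050922 was at -7.26, -7.15, -6.78 and -6.49 untreated and -3.99, -5.71, -4.01 and -3.60 with PHE, which is at least 1.36-fold higher. Newborn PHE replicate 2 was the only PHE array of that age not well above background, and without it the probe entered the test, at a fitted difference of 3.05 (adjusted p = 0.000895). A_70_P050921 gave -7.28, -6.90, -6.79 and -5.26 untreated against -3.86, -5.76, -4.07 and -3.53 with PHE in the newborn lamb, at least 1.38-fold higher, with replicate 2 of the PHE group below the highest untreated array. Without that replicate its fitted difference was 2.74 (adjusted p = 0.00538). Leaving out the low PHE array is what let both probes into the test, with no untreated array well above background, so these fits are no support for a change. In the adult, 2 of 4 PHE arrays were well above background for each probe and no untreated array was. The adult values were -7.84, -7.90, -8.02 and -8.18 untreated and -5.22, -7.55, -5.47 and -4.73 with PHE for A_70_P050922. For A_70_P050921 they were -7.71, -6.38, -7.91 and -6.56 untreated and -5.61, -7.48, -5.17 and -4.62 with PHE. These amount to at least 1.29-fold and at least 1.31-fold with the undetected PHE arrays taken at their own values, so that neither these nor the newborn folds, where 3 of 4 PHE arrays were detected, are strict bounds, and only the first probe's groups were apart.

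In the near-term fetus the accession-named probes were well above background on all 8 arrays, and their PHE difference did not pass the test. A_70_P050921 was at -3.93, -3.90, -2.90 and -2.27 untreated and -3.76, -4.34, -4.01 and -1.65 with PHE, a difference of -0.19 ± 0.63 (95% interval -1.48 to 1.11, limma adjusted p = 0.837). A_70_P050922 was at -3.68, -4.38, -3.34 and -1.78 untreated and -3.57, -4.23, -4.38 and -2.16 with PHE, a difference of -0.29 ± 0.58 (-1.48 to 0.90, adjusted p = 0.72). Untreated and PHE arrays overlapped for both probes. The highest of each group was replicate 4. Without the 2 dim arrays the differences were 0.25 and 0.21. With the planned normexp they were -1.31 and -1.36, both called lower with PHE (limma, adjusted p = 0.0395 and 0.0368). Within slide 5, against the 1 untreated array there, the differences were -1.17 and -1.80. Above the negative control median of its own array, A_70_P050921 lay at 2.78 to 3.64 untreated and 3.20 to 6.11 with PHE. A_70_P050922 lay at 2.71 to 3.26 untreated and 3.40 to 5.60 with PHE, and these values were not tested. The sign of these differences is therefore not settled. The intervals allow a rise of up to about 1 log2 unit and reach down to -1.48.

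On the accession-named probes a difference of PHE effects between the near-term fetus and the other ages could not be measured, since most or all untreated arrays of those ages were not well above background. As bounds, with undetected PHE arrays again at their own values, the PHE effect on A_70_P050922 was at least 1.02 log2 units in the premature fetus, at least 0.45 in newborn lambs and at least 0.37 in adult sheep, against the near-term -0.29. The newborn and adult bounds lie inside the near-term interval. The premature bound lies above its upper end of 0.90, but it carries no interval of its own. The fitted differences of effects, which take signals below background at face value, were -3.07 ± 0.82 for near-term minus premature, 2.88 ± 0.82 for newborn minus near-term and 2.53 ± 0.82 for adult minus near-term (limma, adjusted p = 0.0328, 0.0251 and 0.0472), and the last 2 passed the filter only through the near-term arrays, where the probe is high. With 1 array left out these calls were lost in 9, 4 and 23 of 32 fits, and all 3 were lost with only the arrays compared in the fit and with normexp after repair (-1.11, 1.17 and 1.19). A_70_P050921, with the same limit, gave -2.54, 2.44 and 1.61 (adjusted p = 0.0989, 0.0759 and 0.249). A_70_P061521, measured in all these groups, gave -0.91, 1.39 and 1.39, with adjusted p of 0.312, 0.0753 and 0.0757. None of these 6 passed in this fit. With slide as a block, newborn minus near-term passed at 3.42 on A_70_P050921 and 1.95 on A_70_P061521 (limma, adjusted p = 0.0463 and 0.0456). With the planned normexp, which compressed untreated near-term replicates 1 and 3, it passed at 2.20 and 1.84, and adult minus near-term on A_70_P061521 at 1.51. With 1 array left out, newborn minus near-term passed in 3 of 32 fits on each probe. Adult minus near-term on A_70_P061521 passed in 3, and near-term minus premature on A_70_P050921 in 1. Newborn minus premature was -0.10, -0.19 and 0.48 for the 3 probes in order, with an adjusted p of 1 for each after rounding, and adult minus newborn for A_70_P061521 was -0.01 (-1.05 to 1.04).

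**Figure D3:**
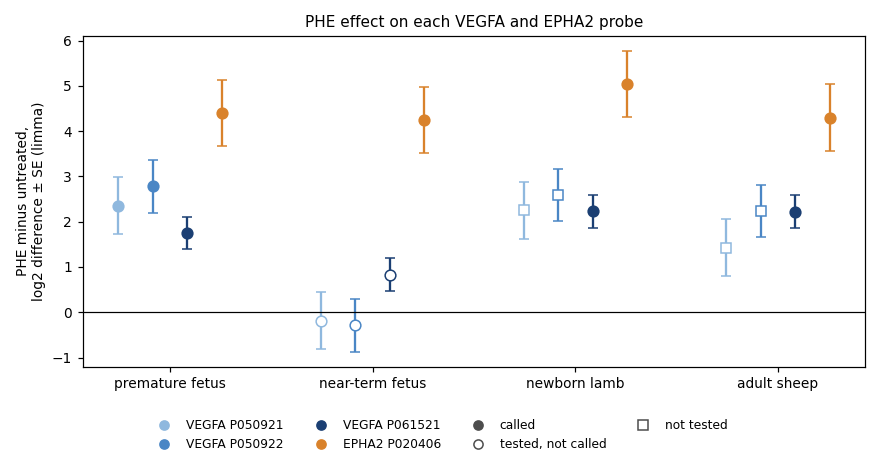
Log2 difference between PHE and untreated group means for the 3 VEGFA probes and EPHA2 at each age, with SE from limma; filled circles passed the test, open circles were tested and did not pass, and squares were not tested because neither group had 4 arrays well above background for the probe. Values of EPHA2 and of the 2 accession-named VEGFA probes outside the near-term fetus include untreated signals below background and are not a measured comparison of ages. A_70_P061521, detected on 31 of 32 arrays, lies at 1.75, 0.83, 2.23 and 2.22 from premature to adult.

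The 3 VEGFA probes were compared within each array, by the PHE effect on the difference between a pair of probes, at each age. In these 12 comparisons the smallest exact two-sided permutation p was 0.0857 (8 arrays of the premature fetus, A_70_P061521 against A_70_P050922, -1.03 log2) and no adjusted p was below 0.411. With 12 tests and 4 against 4 arrays a single pair could not have passed after adjustment. Outside the near-term fetus the accession-named probes were mostly not well above background in untreated arteries, so the comparison of their response with that of A_70_P061521 could be made on measured signals only near term. In the near-term fetus A_70_P061521 moved 1.02 log2 units more than A_70_P050921 and 1.12 more than A_70_P050922 (exact p = 0.143 for both). Over the 32 arrays the 2 accession-named probes had a Pearson r of 0.96 with each other, and 0.85 after group means were removed. Their r with A_70_P061521 was 0.68 and 0.67, or 0.65 and 0.55 within groups. EPHA2 had an r of 0.50 to 0.57 with the VEGFA probes, and 0.17 to 0.33 within groups. The 32 arrays share groups, slides and array brightness, and these coefficients are descriptions.

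Among untreated arteries, VEGFA read lower in adult sheep than in the near-term fetus. For A_70_P061521 the log2 difference was -2.36 ± 0.36 (limma, adjusted p = 8.41e-06), which is 5.12-fold lower in the adult. This probe was found through its adult change with PHE, which favours a low untreated adult level, and 3 of the 4 untreated adult arrays were well above background, so it too passed the filter through the near-term group and its test is no independent support. No untreated adult array was well above background for the accession-named probes, so only bounds are given, at least 7.26-fold higher in the near-term fetus for A_70_P050921 and at least 7.05-fold for A_70_P050922 (group means -3.25 against -7.14 and -3.29 against -7.98). They passed the filter only through the near-term arrays, where they are high, and are no further support. No untreated adult array reached an untreated near-term array on any of the 3. In this comparison 43.4% of all tested probes were called. The median of the negative control spots, on the same scale, was -7.54 to -5.04 on the untreated near-term arrays and -8.96 to -7.79 on the untreated adult arrays, and its part in the difference was not tested. Above that median of its own array, A_70_P061521 lay at 3.09 to 4.59 near term and 1.99 to 4.13 in the adult, so the groups overlapped. A_70_P050921 (2.78 to 3.64 against 0.08 to 1.77) and A_70_P050922 (2.71 to 3.26 against -0.08 to 0.94) stayed apart. Within slide 3, with 2 arrays a group, the difference was -1.77 for A_70_P061521, and within slide 4, with 2 adult arrays and 1 near-term array, it was -2.85. Between the untreated newborn lamb and premature fetus, A_70_P061521 differed by -0.86 ± 0.36 (adjusted p = 0.128), where 11% of probes were called, and this became a call with only these arrays fitted (adjusted p = 0.0234). Slide and age cannot be told apart in that pair. EPHA2 was below the filter in both untreated comparisons and was not tested.

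Ordered by mean level, A_70_P061521 was highest in premature PHE arteries (-0.27 ± 0.23, SD, n = 4), followed by newborn PHE (-0.65 ± 0.22), near-term PHE (-1.68 ± 0.37), untreated premature (-2.02 ± 0.32), untreated near-term (-2.52 ± 0.56), adult PHE (-2.65 ± 0.68), untreated newborn (-2.88 ± 0.38) and untreated adult (-4.87 ± 0.92). Neighbours in this order overlapped in their arrays, with 2 exceptions: newborn PHE lay wholly above near-term PHE, and untreated newborn wholly above untreated adult. On this probe PHE-treated adult arteries thus overlapped with untreated fetal and newborn arteries. The order crosses slides and the 2 scan days, whose part in it was not tested. For EPHA2 the 4 PHE groups lay between means of -1.17 and -0.80 and overlapped with each other, and the 4 untreated groups lay between -5.92 and -5.04 and overlapped likewise.

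Of 2422 other named probes, those whose levels over the 32 arrays ran closest to VEGFA (A_70_P061521) were LOC100849094, HK2 (hexokinase 2, the first step of glycolysis), ICAM1 (an adhesion molecule for leukocytes), CD68 (a lysosomal protein of macrophages) and C3orf52, all with a Pearson r of 0.91. After group means were removed these were between 0.28 and 0.52. Closest to EPHA2 were CDKN1A (p21, an inhibitor of the cell cycle), GCH1 (the first enzyme of tetrahydrobiopterin synthesis), NDEL1 (a partner of dynein), RNF19B (a ubiquitin ligase) and MYC (a growth-promoting transcription factor), with r of 0.94, and of 0.70 to 0.91 within groups. Most candidates carry a name because the study listed them as altered by PHE, so genes that PHE did not move are thinly represented among them.

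The receptors for VEGFA gave little to measure. FLT1, KDR, NRP1 and NRP2 had 11 probes, and only NRP1 passed the filter at all 4 ages. From premature to adult its PHE difference was -0.27, -0.06, 0.10 and -0.33, and none passed the test (limma, adjusted p of 0.653 to 0.922). KDR was tested in the near-term fetus only, at 0.22, and did not pass. No other VEGF ligand had a named probe.

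EPHA1, the other Eph receptor with a named probe, also rose at every age. Its log2 difference was 2.70, 3.16, 3.54 and 4.39 from premature to adult (SE 0.51, limma adjusted p of 7.07e-07 to 0.000328). The ephrin ligands were lower with PHE where they were called. PHE lowered 8.51%, 18.4%, 5.19% and 0.845% of all tested probes from premature to adult. EFNB1, a transmembrane ephrin, fell by 1.66 in the premature fetus, 1.09 near term and 0.92 in the newborn lamb, and its adult difference of -0.32 did not pass (adjusted p = 0.726). EFNA4, a membrane-anchored ephrin of the class that EPHA2 binds, fell by 1.27 in the premature fetus. In newborn lambs it was called at a fitted -1.11, but 1 of 4 PHE arrays was well above background there and the probe passed the filter through the untreated group, so the size is not measured. Its near-term (0.03) and adult (0.10) differences did not pass. All 4 genes of the Eph system are named through the study's list of altered genes, and 12 of 14 Eph receptors and 6 of 8 ephrins had no named probe, so the values do not describe the families as a whole.

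**Figure D4:**
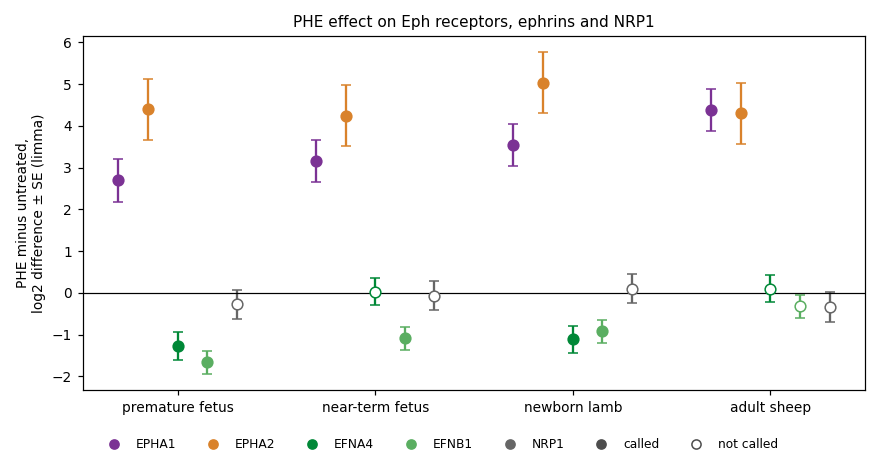
Log2 difference between PHE and untreated group means, with SE from limma, for the 2 Eph receptors, the 2 ephrin ligands and the VEGFA co-receptor NRP1 at each age; filled circles passed the test and open circles did not. Both receptors are above 2.69 at every age, EFNB1 is below 0 throughout, and NRP1 stays near 0.

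Other angiogenic genes are given by the number of probes called, with the median log2 difference of a list beside that of all probes tested (-0.09, -0.08, -0.08 and -0.04 from premature to adult). Over all tested probes, 9.12%, 17.5%, 5.9% and 3.04% were called higher with PHE at these ages. Names come largely from the study's list of altered genes, which raises such counts by construction. Among the angiopoietins and their Tie receptors, with 5 probes of 3 genes, no probe was called in the premature fetus or the adult, and the medians from premature to adult were 0.70, -0.27, 1.56 and 0.83. TIE1, an endothelial receptor of the angiopoietin system, was called in the near-term fetus (2.34 ± 0.57, adjusted p = 0.00225), where 1 of 4 untreated arrays was well above background and the probe passed the filter through the PHE group. ANGPT2, a ligand that loosens vessels for sprouting, was higher in the newborn lamb on 2 of 3 probes (1.64 ± 0.50 on the more strongly changed, adjusted p = 0.0289). Other growth factors and receptors of angiogenesis rose on 9 of 27, 13 of 26, 6 of 26 and 2 of 23 probes tested, in the order premature, near-term, newborn and adult, with medians of 0.63, 1.26, 0.58 and 0.32. TGFBR1, a receptor for transforming growth factor beta, fell near term (by 0.96), and CTGF, a matrix-associated growth factor, fell in newborn lambs (by 1.96), while the same CTGF probe rose near term (by 1.62, adjusted p = 0.0147). CXCL8, a chemokine that attracts neutrophils and acts on endothelium, was called at all 4 ages, at fitted differences of 8.80, 7.21, 8.68 and 5.38 from premature to adult. Its untreated signal was well above background on 4, 2, 3 and 1 of 4 arrays, so the last 3 sizes rest partly on signals below background. Inhibitors of angiogenesis rose too, on 4 of 11, 7 of 10, 3 of 11 and 2 of 10 probes, with medians of 1.30, 1.83, 1.00 and 1.1, and none fell. SPRY2, which restrains receptor tyrosine kinase signalling, was higher at all 4 ages, by 2.16, 1.68, 1.64 and 1.03.

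Hypoxia factors and targets rose on 8 of 15, 8 of 20, 5 of 19 and 2 of 17 probes tested from premature to adult, against 9.12%, 17.5%, 5.9% and 3.04% of all tested probes, with medians of 1.64, 0.91, 1.00 and 0.47. The list holds regulators as well as genes raised by low oxygen, and VEGFA, a known target, is not in it. VHL, which marks hypoxia-inducible factors for degradation, fell in the premature (by 0.85) and near-term fetus (by 1.16), and EGLN3, an oxygen-sensing hydroxylase, fell near term (by 0.97). HK2 (A_70_P002311) was higher by 4.68 in the premature fetus and 1.80 in the near-term fetus, and by at least 18.6-fold in the newborn lamb, whose untreated arrays were not well above background. DDIT4, an inhibitor of mTOR signalling induced by low oxygen and stress, differed by 3.62, 1.30 and 1.71 at these 3 ages, and its adult difference of 0.58 did not pass (adjusted p = 0.683). Of the 5 probes for signalling below the VEGF receptor, 4 rose and 1 fell in each fetal group, and 1 rose and 1 fell in newborn and adult arteries, with medians of 0.89, 1.61, 0.21 and 0.07 from premature to adult. RCAN1, a feedback inhibitor of calcineurin induced by VEGF signalling, was the one that rose at all 4 ages (2.72, 2.92, 2.61 and 3.86), and MAPK14 (p38 kinase) the one that fell (by 1.23, 0.80, 1.09 and 0.77). Factors known to bind the VEGFA promoter or mRNA rose on 10 of 16, 14 of 16, 6 of 15 and 11 of 17 probes, with medians of 2.51, 4.92, 1.76 and 3.63, and none fell. EGR1, an immediate-early transcription factor, was below background in untreated arteries at the first 3 ages and was at least 9.37-fold, 72.1-fold and 2.43-fold higher with PHE at these ages, in order, with a fitted log2 difference of 5.72 in the adult, where 2 of 4 untreated arrays were well above background. ZFP36, which promotes decay of AU-rich mRNAs, was higher by 6.47, 7.25, 2.96 and 4.04.

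Markers of other cell types moved with PHE at some ages. From premature to adult, 1 of 5, 1 of 5, 3 of 4 and 1 of 4 leukocyte probes tested were higher with PHE, against 9.12%, 17.5%, 5.9% and 3.04% of all tested probes, and their summed log2 level ran from 1.25 to 1.39 untreated and 1.92 to 2.73 with PHE in premature arteries, 0.69 to 2.35 and 0.07 to 1.71 in near-term arteries, 0.27 to 2.57 and 2.21 to 2.88 in newborn arteries, and -1.14 to 0.24 and -0.42 to 1.32 in adult arteries. The summed level of the blood markers was 4.83 to 5.69 untreated and 3.47 to 3.66 with PHE in premature, 3.69 to 4.57 and 0.67 to 2.95 in near-term, 4.64 to 5.28 and 3.77 to 4.25 in newborn, and 1.40 to 3.25 and 1.41 to 2.08 in adult arteries. HBA1, an alpha globin, was the blood probe that passed, lower by 1.96 in the premature and 2.38 in the near-term fetus. Fibroblast markers were higher with PHE on 6 of 8 probes in the near-term fetus, on 2 of 8 in the premature fetus and on none of 8 in the newborn lamb and adult. No fat or brain probe was called at any age. The summed level of the brain markers was nonetheless apart in the premature fetus, at -2.0 to -1.32 untreated and -2.92 to -2.38 with PHE, and that of the fat markers was -1.04 to 0.83 and -2.67 to -0.06 near term. The part of these markers in the VEGFA and EPHA2 results was not tested.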

How the data were processed

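RNA from MCA segments was hybridized to 32 one-colour Agilent sheep arrays. The authors read spot intensities with Agilent Feature Extraction, named in the submitters' processing notes, and deposited processed intensities that are background-corrected within the array and not scaled between arrays. The deposited matrix of values held the same intensities on all 32 arrays. The genome build and the position of the probes were not given in the sources used here, and no probe sequence was printed for that reason.

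Control spots and outlier spots were left out, and repeated spots of 50 probes were averaged. Signals were scaled to the 75th percentile of their array, as in the study's methods, and log2-transformed. Values were fitted with limma 3.58.1 in R 4.3.3 (lmFit, eBayes, means of 8 groups, 15008 probes), and summarised with Python 3.11.15, pandas 2.3.3 and scipy 1.17.1. A probe was tested in a comparison where 1 of the groups had it well above background on its 4 arrays, with Benjamini-Hochberg adjustment over all of them, two-sided. The fit was tested on simulated data. The number of arrays limits the precision. Bounds for folds raise each value of a dim group to the lowest detected signal of that array where it lies under it.

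Of all probes, 543 were named by accession, 424 by the name in the files, 7 by an older name and 1883 by matching group means of the study's list to the arrays. A shifted list gave 110 false matches of 1269 genes for the premature fetus and 2, 1 and 1 for the other ages. Named were VEGFA, EPHA2, the VEGF receptors, Eph receptors and ephrins, up to 2 members of each other list with the largest change among those called at the most ages (1 where a single member was called at that many), and the 5 genes most like each of VEGFA and EPHA2. TGFBR1, CTGF, VHL, EGLN3 and HBA1 were named after their values were seen, as the members that fell. The 10 pathway lists, 7 marker lists and the members were chosen with earlier results of these data known.

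Deviations from group means of untreated and PHE arrays with the same replicate number correlated over probes at r = 0.354 to 0.543 in the premature fetus and 0.491 to 0.592 in the newborn lamb, so that numbers pair the arrays there, and at -0.196 to 0.334 in the near-term fetus and -0.095 to 0.039 in the adult, where they do not. The pairing is read from the data, and the labels do not state it. Alternatives were other background corrections, scalings, filters, blocks and tests, and each array left out.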

Additional observations from a re-analysis of the deposited data

Results flagged for a closer look

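For VEGFA probe A_70_P050922 the fitted difference of PHE effects between the near-term fetus and each of the other 3 ages passed the test. On the log2 scale it was -3.07 for near-term minus premature, 2.88 for newborn minus near-term and 2.53 for adult minus near-term (limma, adjusted p of 0.0328, 0.0251 and 0.0472). The 3 values share the near-term arrays. These are not measured differences of effects, since the probe was not well above background on any untreated array of the premature fetus, newborn lamb or adult, and the newborn and adult comparisons passed the filter only through the near-term arrays. The calls were lost in 9, 4 and 23 of 32 fits without 1 array, and with normexp after repair (-1.11, 1.17 and 1.19). By Dixon's outlier test no array stood apart within its group of 4 for any of the 4 probes, which includes newborn PHE replicate 2, the array whose removal made both accession-named probes testable in the newborn lamb.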

How the results depend on the processing

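EPHA2 kept its direction at all 4 ages under every alternative run, and its call in each fit without 1 array. VEGFA on A_70_P061521 did so in the premature fetus and newborn lamb. The planned normexp correction, which gave compressed values on 4 arrays with a few spots of very high local background, was repeated with those backgrounds replaced, and both are printed. This, the exact tests, the values within a slide and the fit without both dim near-term arrays were chosen after seeing the data. For each change below the cause was not tested.

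With the planned normexp, the PHE difference was 1.47 for EPHA2 in the premature fetus (adjusted p = 0.102) and 0.90 in the near-term fetus (0.201), and 1.23 for A_70_P061521 in the adult (0.0597), so that these calls were lost. On A_70_P050921 and A_70_P050922 it was -0.050 and -0.014 in the premature fetus and -1.31 and -1.36 in the near-term fetus (adjusted p = 0.0395 and 0.0368, lower with PHE), and on A_70_P061521 it was -0.28 near-term. With backgrounds replaced, A_70_P050921 and A_70_P050922 gave 0.55 and 0.59 in the premature fetus, no longer called, and the other calls of the PHE effect were kept. Differences of effects under the planned normexp were 0.94 and 0.95 for newborn minus premature on these 2 probes, 2.03 for adult minus near-term and -1.35 for near-term minus premature on A_70_P050922 (both calls lost), 1.51 and 1.84 for adult and newborn minus near-term on A_70_P061521 and 2.20 for newborn minus near-term on A_70_P050921 (calls gained), and 0.46 for adult minus newborn on EPHA2. With backgrounds replaced they were 0.062 and 0.057 for newborn minus premature, 0.47 for EPHA2 and 0.025 for A_70_P050922 in adult minus newborn, and 1.19, -1.11 and 1.17 on A_70_P050922 for adult minus near-term, near-term minus premature and newborn minus near-term, all 3 no longer called.

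Quantile normalization gave 0.25 for A_70_P050921 and 1.13 for A_70_P061521 in the near-term fetus (the latter called, adjusted p = 0.0236), -2.21, 1.47 and -0.65 for EPHA2 in adult minus near-term, near-term minus premature and newborn minus near-term, 2.03 and -2.78 for A_70_P050922 in the first 2 of these (calls lost), and 2.14 for untreated EPHA2, adult minus near-term. Without both dim near-term arrays, the near-term values were 0.25, 0.21 and 1.14 on the VEGFA probes in order, EPHA2 differed by -0.95, 0.85 and -0.21 in the same 3 differences of effects and by 0.20 in that untreated pair, and A_70_P050922 by 2.03 in adult minus near-term (call lost). Median scaling gave 0.0062 for newborn minus premature on A_70_P050921 and 0.30 for untreated EPHA2. A floor of 0.01 gave 1.42 for adult minus near-term on A_70_P050922 (call lost). With no filter on dim probes that difference of 2.53 lost its call (adjusted p = 0.0529), and 2.25 and 2.59 in the newborn lamb (A_70_P050921, A_70_P050922) and 2.24 in the adult (A_70_P050922) were called. The unpaired exact permutation test also passed 2.59 and 2.24, and a paired one, as the newborn pairing asks, could not go below 0.125.

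With slide as a block the near-term EPHA2 difference was 2.97, newborn minus near-term was 3.42 on A_70_P050921 and 1.95 on A_70_P061521 (calls gained), adult minus newborn was 0.086 on A_70_P061521, and untreated EPHA2 was 0.21. Within slide 5 near-term A_70_P050922 was -1.80, and within slide 4 untreated EPHA2 was 2.05. With only the arrays compared, 4.24 for near-term EPHA2, 2.22 for adult A_70_P061521 and 2.53, -3.07 and 2.88 on A_70_P050922 were no longer called, and -0.86 for untreated newborn minus premature on A_70_P061521 was. With the methods' t-test after Benjamini-Hochberg, 4.24 and 4.30 for near-term and adult EPHA2, 2.22 for adult A_70_P061521 and the same 3 differences of effects were not called. Before adjustment at 0.05 it also passed -2.54 and 2.44 on A_70_P050921, -0.91 and 1.39 on A_70_P061521 and the untreated -0.86.

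Between probes, A_70_P061521 minus A_70_P050921 and minus A_70_P050922 became 1.15 and 1.11 in the premature fetus, 0.67 and 0.62 in the newborn lamb and, for the second, 0.56 in the adult with the planned normexp. With backgrounds replaced they were 0.84, 0.81, 0.90, 0.87 and 0.56, and A_70_P050922 minus A_70_P050921 near-term was 0.026. The floor gave 0.24 for newborn A_70_P061521 minus A_70_P050921 and 1.09 for adult A_70_P061521 minus A_70_P050922. None of these passed.

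With 1 array left out, near-term PHE differences ran from -0.78 to 0.14, -0.76 to 0.21 and 0.62 to 1.02 on the VEGFA probes in order, and newborn ones from 1.99 to 2.74 and 2.35 to 3.05 on the first 2. Newborn minus premature ran from -0.41 to 0.39 (A_70_P050921) and -0.52 to 0.27 (A_70_P050922). Adult minus near-term ran from -0.53 to 0.82 (EPHA2), 2.03 to 3.13 (A_70_P050922) and 1.08 to 1.78 (A_70_P061521). Near-term minus premature ran from -0.72 to 0.43 (EPHA2), -3.13 to -2.21 (A_70_P050921) and -3.55 to -2.57 (A_70_P050922), and newborn minus near-term from 2.11 to 3.04, 2.38 to 3.36 and 1.21 to 1.61 on the VEGFA probes. Adult minus newborn ran from -1.24 to 0.027 (EPHA2), -0.81 to 0.25 (A_70_P050922) and -0.32 to 0.39 (A_70_P061521). Untreated differences ran from -0.28 to 0.28 (A_70_P050922, newborn minus premature) and -0.79 to 0.25 (EPHA2, adult minus near-term). Between probes the ranges were -0.25 to 0.075 (near-term, A_70_P050922 minus A_70_P050921), -0.43 to 0.16 (newborn, A_70_P061521 minus A_70_P050921) and -0.38 to 0.35 (adult, A_70_P061521 minus A_70_P050922).

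The number of probes called was 1792 in the premature fetus, and 1159 with the planned normexp, 1176 with median scaling, 3024 with only these arrays and 2972 with the unadjusted t-test. In the near-term fetus it was 3561, against 130 with only these arrays, 18 and 1933 with the adjusted and unadjusted t-test, and under normexp 748 of 4214 calls were higher with PHE against 1740 of 3561. In the newborn lamb it was 1086, against 613, 682, 1886 and 1959 in the order given for the premature fetus, and 708 (without PHE replicate 4) to 1302 with 1 array left out. In the adult it was 372, against 161 with only these arrays, 9 and 655 with the t-tests, and 239 (without PHE replicate 1) to 562 (without PHE replicate 2). Median scaling moved the median of all tested probes to -0.20 in the premature and -0.23 in the near-term fetus. The replicate block gave 1966, 3809, 1198 and 449 calls from premature to adult and changed no call of VEGFA or EPHA2. It was not run for untreated arteries, since each number holds 1 array a group, nor slide as a block for untreated newborn against premature. Signal over background limits A_70_P050921 and A_70_P050922, well above background on 18 and 17 of 32 arrays, and EPHA2, on 21.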
